A study of Homo sapiens with 35 samples.

Results

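SOX17, FOXA2, HHEX, PRDM1, CER1 and CXCR4 are 6 genes that are widely used to recognise definitive endoderm, and their levels were followed in H9 human embryonic stem cells as these entered differentiation. They were taken by symbol from a deposited table of 58581 genes, and all 6 were found. Definitive endoderm is the embryonic layer that gives rise to the lining of the gut and to liver, pancreas and lung. It forms when cells of the primitive streak receive strong Nodal or Activin signals through SMAD2 and SMAD3, while BMP4 signals favour mesoderm and amnion. SOX17 and FOXA2 are transcription factors of this layer, HHEX is a homeodomain factor of anterior endoderm and later of liver and blood, and PRDM1 (BLIMP1) is a transcriptional repressor of endoderm that is also central to germ cells. CER1 is a secreted antagonist that binds Nodal and BMP ligands, and CXCR4 is the cell surface receptor of the chemokine CXCL12 by which endoderm is commonly sorted. None of the 6 is restricted to definitive endoderm: SOX17 is also made in extraembryonic endoderm, germ cells and endothelium.

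Poly(A) RNA was sequenced in 35 libraries that made up 25 groups. The H9 line was grown on Matrigel in E8, split with EDTA and plated as single cells in every group. The cells were then kept for 6, 12, 18, 24, 30, 36, 42 or 48 h in BA (E6 medium with BMP4 and Activin A, each at 40 ng/mL, the mesendoderm condition), in E6 alone (spontaneous differentiation) or in E8 (maintained pluripotency), and t0 was taken at plating. Replicates, 3 each, exist at 48 h for BA, E6 and E8, at 24 h for BA, and for t0, and the other 20 groups had 1 library. The labels describe 1 cell line and leave unsaid if the replicates came from separate cultures. P-values of the replicated groups thus measure the spread between these libraries, which may be technical.

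Libraries held 11793453 to 37191969 counts. Within each replicated group, replicates 2 and 3 correlated with each other across genes at a Pearson's r of 0.987 to 0.991, while replicate 1 correlated with them at 0.740 to 0.835 (log2(CPM + 1), where CPM is the count scaled to a common library total). Replicate 1 belongs with the single libraries of the other hours: those 25 libraries are called the first set here, and the 10 libraries numbered 2 or 3 the second set. The sets differed within BA at 48 h in epithelial genes as well, with CDH1 at 41.3 CPM in replicate 1 and 453 and 464 CPM in replicates 2 and 3. In E6 at 48 h CDH1 had 177, 402 and 382 CPM in replicates 1, 2 and 3. The E6 library of 18 h also stood apart from its neighbours in time, and the E8 libraries of 18 and 36 h had low CDH1 (18.2 and 24.2 CPM, against 101 to 134 CPM in the other E8 libraries of the first set). The BA library of 42 h was low in epithelial genes too, with 22.1 CPM of CDH1 and 17.2 CPM of EPCAM. BA had 127 and 48.9 CPM of these at 36 h, and 41.3 and 45.6 CPM in replicate 1 at 48 h. Across genes, its median correlation with E6, E8 and t0 libraries of its set (0.885) lay between those at 36 h (0.894) and 48 h (0.867). Results that rest on the named libraries of E6 at 18 h, E8 at 18 and 36 h and BA at 42 h are given with and without them. In bulk RNA, fewer cells of a type and less RNA per cell cannot be told apart.

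The genes and their surroundings were as follows, on GRCh38 with GENCODE release 29. HHEX (ENSG00000152804.10) lies at chr10:92689951-92695646 on the plus strand, CER1 (ENSG00000147869.4) at chr9:14719724-14722717 on the minus strand and CXCR4 (ENSG00000121966.6) at chr2:136114349-136118165 on the minus strand, and none of these 3 overlaps another annotated gene. FOXA2 (ENSG00000125798.14) lies at chr20:22581005-22585455 on the minus strand and overlaps AL121722.1 on the same strand. PRDM1 (ENSG00000057657.16) lies at chr6:106086320-106109939 on the plus strand and overlaps AL022067.1 on the same strand and ATG5 on the opposite one. The strand setting of the counting is not given, so reads of FOXA2 and PRDM1 cannot be told apart from those of these partners where they overlap. SOX17 (ENSG00000164736.5) overlaps no other annotated gene.

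The 250 bases before the annotated start are shown for 4 members (RefSeq, GRCh38.p14, where 5 of the 6 symbols, all but FOXA2, were matched), since CER1, HHEX and CXCR4 shared an early and a late high in BA, PRDM1 moved with CER1, and their promoters differ widely in composition. HHEX is at chr10:92689705-92689954 (plus strand), PRDM1 at chr6:106086086-106086335 (plus), CER1 at chr9:14722734-14722983 (minus) and CXCR4 at chr2:136118150-136118399 (minus). Each runs 5′ to 3′ on the strand of the gene, and capitals mark a match, on either strand, to 1 of the motifs named after the sequences.
HHEX: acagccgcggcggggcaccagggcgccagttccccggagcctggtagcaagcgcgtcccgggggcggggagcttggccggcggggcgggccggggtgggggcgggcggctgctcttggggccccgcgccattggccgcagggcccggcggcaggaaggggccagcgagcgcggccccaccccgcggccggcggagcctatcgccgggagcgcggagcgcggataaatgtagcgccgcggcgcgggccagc
PRDM1: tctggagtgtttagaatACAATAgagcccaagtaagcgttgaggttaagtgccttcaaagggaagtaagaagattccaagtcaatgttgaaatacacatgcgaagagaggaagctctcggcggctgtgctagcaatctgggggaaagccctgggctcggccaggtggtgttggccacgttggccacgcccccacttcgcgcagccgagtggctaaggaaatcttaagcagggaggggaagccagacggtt
CER1: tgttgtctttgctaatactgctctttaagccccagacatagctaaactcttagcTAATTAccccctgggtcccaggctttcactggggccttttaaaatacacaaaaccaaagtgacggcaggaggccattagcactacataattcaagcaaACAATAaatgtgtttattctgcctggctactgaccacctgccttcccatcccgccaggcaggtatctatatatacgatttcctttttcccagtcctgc
CXCR4: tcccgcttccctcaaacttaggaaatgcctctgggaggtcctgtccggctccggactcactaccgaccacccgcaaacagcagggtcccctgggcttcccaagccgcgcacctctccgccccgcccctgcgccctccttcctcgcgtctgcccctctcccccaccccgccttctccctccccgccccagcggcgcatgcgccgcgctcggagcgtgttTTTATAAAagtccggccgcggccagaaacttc
GC content was 81.2% in HHEX, 68% in CXCR4, 53.6% in PRDM1 and 45.2% in CER1. The capitals are ACAATA, a SOX-type motif, at position -233 of PRDM1 and -98 of CER1; TAATTA, a homeodomain motif that reads the same on both strands, at -196 of CER1; and TATAAA, read on both strands at -32 and -30 of CXCR4, where the matches overlap. ACAATA was present in 6.94% of the 35116 promoters of the same length, TAATTA in 4.35% and TATAAA in 10.7%. The other motifs searched on both strands had no match in the 4 windows. These were the T-box motif AGGTGTGA, held by 0.786% of all promoters, the FOXH1 motif AATCCACA, held by 0.709%, and the SMAD palindrome GTCTAGAC, held by 0.182%. The TCF/LEF motif ATCAAAG was held by 2.26%, the forkhead motif GTAAACA by 2.98%, the GATA motif written AGATAA by 9.17% and the bicoid-type homeodomain motif TAATCC by 5.62% of them. A match describes letters in the window and not a bound site.

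**Figure D1:**
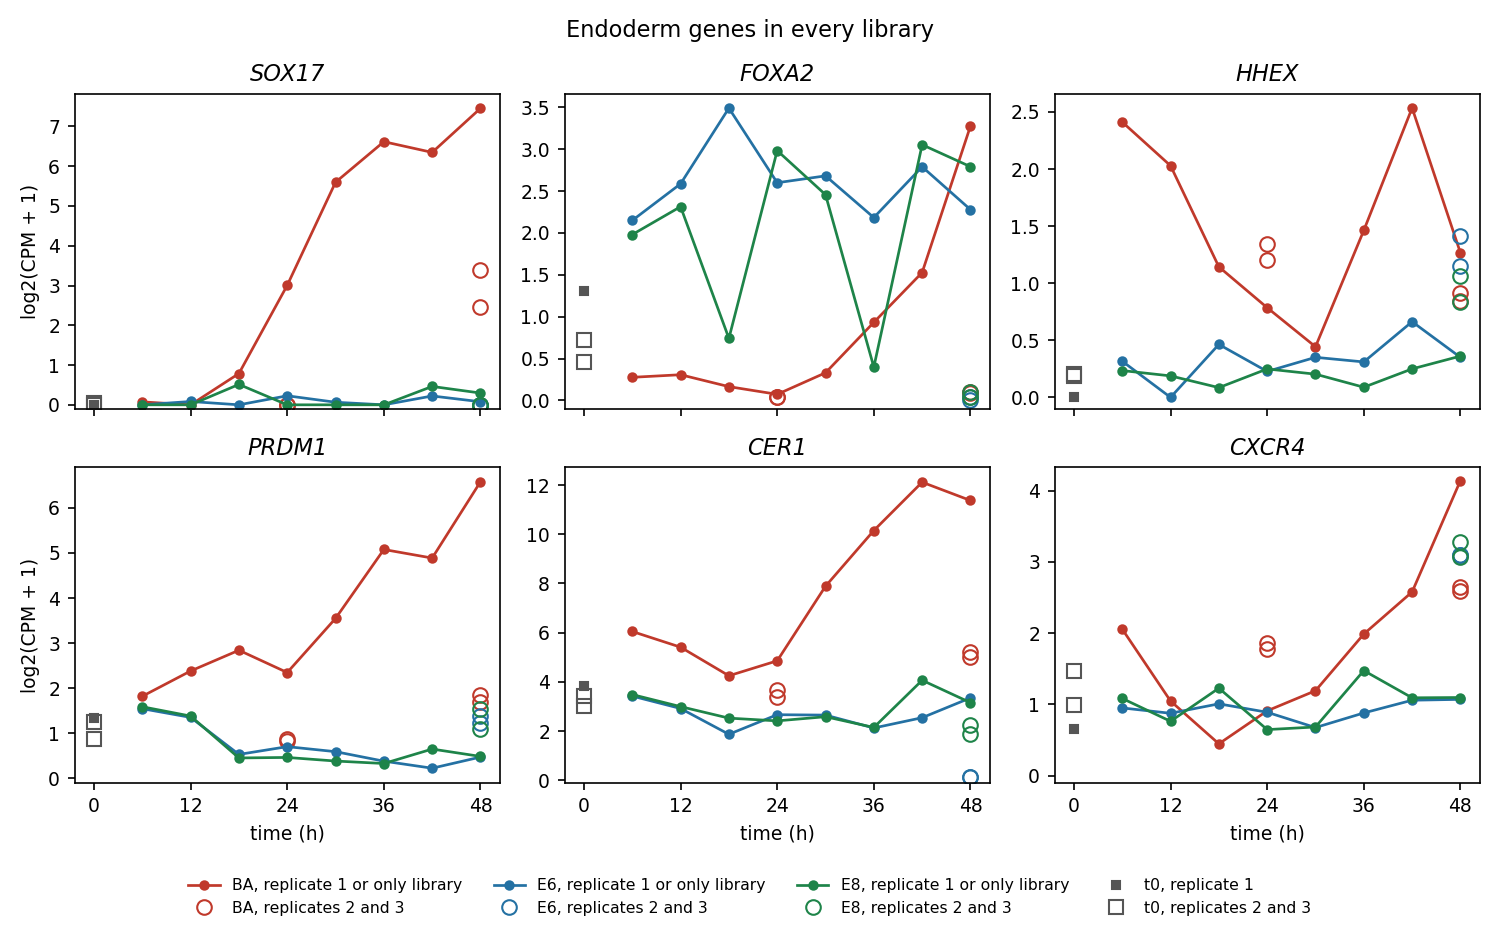
Levels of the 6 genes as log2(CPM + 1) by hour after plating, with lines through the single first-set libraries in BA, E6 and E8, open circles for replicates 2 and 3, and squares for t0. SOX17, PRDM1 and CER1 climb in BA to 175, 94.7 and 2653 CPM at 48 h in the first set, while FOXA2 lies below E6 in BA up to 42 h and the open circles at 48 h lie far below the BA line for these 4 genes.

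SOX17 was close to absent outside BA and appeared in BA late on the first day. In the first set in BA it had 0.0527 CPM at 6 h, 0 at 12 h, 0.725 at 18 h, 7.03 at 24 h, 47.4 at 30 h, 97.1 at 36 h, 80.4 at 42 h and 175 CPM at 48 h. No E6 library exceeded 0.171 CPM (3 counts), no E8 library exceeded 0.427 CPM (7 counts, in the library of 18 h that stands apart), and the t0 libraries had 0, 0 and 1 count. BA was thus above every E6 library from 18 h onwards. The ratio of BA to E6 was 41.2 at 24 h (95% counting interval 13.8 to 202) and 3172 at 48 h (569 to 125315, with 1 count in E6). Within BA, SOX17 was 6.74 times as high at 30 h as at 24 h (5.63 to 8.13) and 24.8 times as high at 48 h as at 24 h. Intervals cover counting error only, since reads without molecular identifiers are not independent molecules, and the hourly ratios have no replicate check.

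In the second set SOX17 was again above both controls in BA at 48 h, at a much lower level. At 48 h it had 175, 9.54 and 4.48 CPM in BA replicates 1, 2 and 3, against 0.055, 0 and 0 CPM in E6 and 0.228, 0 and 0 CPM in E8. At 24 h in BA it had 7.03 CPM in replicate 1 and no count in replicates 2 and 3. The groups at 48 h did not overlap, yet replicate 1 exceeded the mean of the other two in BA by 24.9 times. Over replicates 2 and 3 alone, BA at 48 h was at least 156-fold higher than E6, at least 153-fold higher than E8 and at least 145-fold higher than BA at 24 h, taking the floor of 3 counts over each group with no count. The 2-sided 95% counting intervals of these ratios start lower, at 126, 124 and 118.

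FOXA2, the forkhead factor that opens chromatin at endoderm genes, behaved in the opposite way for most of the course. In BA it had 0.211, 0.237, 0.121, 0.0517, 0.257, 0.908, 1.88 and 8.69 CPM at 6 to 48 h, so that it was barely detected through 30 h and came up only at the end. E6 had 3.44 to 5.92 CPM over the same hours except in the library of 18 h that stands apart (10.2 CPM). E8 had 2.95 to 7.3 CPM except in the libraries of 18 and 36 h that stand apart (0.671 and 0.318 CPM). Up to 42 h every BA library was below the E6 library of its hour: E6 was 16.3 times BA at 6 h (6.09 to 61.5), 97.9 times at 24 h (17.1 to 3909) and 3.14 times at 42 h (2.03 to 4.96). At 48 h the order was reversed in the first set, with BA at 2.25 times E6 (1.68 to 3.05). FOXA2 in BA at 48 h was 4.62 times its level at 42 h (3.11 to 7.06) and 5.92 times that of t0 replicate 1 (3.92 to 9.24).

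Neither FOXA2's level in E6 and E8 nor its late appearance in BA recurred in the second set. FOXA2 had 8.69, 0.0696 and 0.0635 CPM in BA replicates 1, 2 and 3 at 48 h, 3.85, 0 and 0.0296 CPM in E6 and 5.92, 0.0262 and 0.0702 CPM in E8. All 6 second-set libraries at 48 h thus lay below 0.1 CPM, while all 3 first-set libraries lay above 3 CPM. The fall by 24 h in BA was seen in both sets: FOXA2 had 0.0517, 0.0314 and 0.0318 CPM in BA at 24 h, against 1.47, 0.648 and 0.374 CPM at t0, with no overlap.

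HHEX was highest in BA at the first hour sampled and again near the end. It had 4.32 CPM (82 counts) at 6 h, then 3.08, 1.21, 0.724 and 0.36 CPM (7 counts) at 12, 18, 24 and 30 h, and then 1.76, 4.8 (79 counts) and 1.4 CPM at 36, 42 and 48 h. The level at 6 h was 12 times that at 30 h (5.57 to 30.8) and the level at 42 h was 13.3 times that at 30 h (6.17 to 34.2). The library of 42 h was low in CDH1 and EPCAM, but those of 36 and 48 h were also above that of 30 h, by 4.88 times (2.09 to 13.2) and 3.90 times (1.61 to 10.8). E6 had 0 to 0.583 CPM and E8 0.061 to 0.285 CPM in the first set, and t0 had 0, 0.136 and 0.15 CPM. BA was above E6 at 17.6 times at 6 h (7.25 to 55.7) and 8.22 times at 42 h (3.81 to 21.1), but at 30 h the ratio was 1.31 with an interval of 0.376 to 4.71, so that no difference was detectable at this depth. At 24 h HHEX had 0.724, 1.54 and 1.3 CPM in BA, all above t0. At 48 h the sets parted in E6 and E8 rather than in BA: HHEX had 1.4, 0.8 and 0.889 CPM in BA, 0.275, 1.23 and 1.66 CPM in E6 and 0.285, 0.785 and 1.09 CPM in E8.

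PRDM1 climbed in BA from 30 h onwards while it declined in E6 and E8. In BA it had 2.53, 4.21, 6.17, 4.08, 10.7, 32.8, 28.6 and 94.7 CPM at 6 to 48 h. In E6 it had 1.91 and 1.55 CPM at 6 and 12 h and 0.167 to 0.625 CPM afterwards, and E8 had 2 and 1.6 CPM and then 0.254 to 0.566 CPM. BA and E6 did not differ beyond counting error at 6 h (ratio 1.32, 0.848 to 2.07). BA was 6.53 times E6 at 24 h, 21.2 times at 30 h and 246 times at 48 h (119 to 613). At 18 h, where the E6 library stands apart, BA was 13.9 times E6. In the second set PRDM1 was far lower in BA: the 3 replicates at 48 h had 94.7, 2.61 and 2.22 CPM in BA, against 0.385, 1.34 and 1.6 CPM in E6 and 0.399, 1.12 and 1.89 CPM in E8. BA remained above all E6 and E8 libraries at 48 h, by a much smaller margin in replicates 2 and 3. At 24 h it had 4.08, 0.816 and 0.764 CPM in BA, against 1.52, 0.819 and 1.38 CPM at t0, so the sets lay on opposite sides of t0.

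CER1 was the most abundant of the 6 and had an early high, a dip and a late high in BA. It had 65.2, 41.5, 18 and 28 CPM at 6, 12, 18 and 24 h, then 236, 1138, 4442 and 2653 CPM at 30, 36, 42 and 48 h. The level at 6 h was 3.62 times that at 18 h (3.19 to 4.12), and that at 42 h was 247 times that at 18 h (220 to 277). Beside the library of 42 h, which was low in CDH1 and EPCAM, those of 36 and 48 h were 63.2 and 147 times that of 18 h. In the first set E6 had 3.36 to 9.72 CPM, and 2.65 CPM in the library of 18 h that stands apart. E8 had 4.33 to 15.7 CPM, and 4.76 and 3.43 CPM in those of 18 and 36 h that stand apart. The t0 libraries had 13.4, 7.06 and 9.65 CPM. BA exceeded E6 at every hour, by 6.71 times at 6 h (5.77 to 7.83), 919 times at 42 h (711 to 1211) and 289 times at 48 h (248 to 338). At 48 h CER1 had 2653, 31.6 and 36 CPM in BA, against 9.19, 0.0876 and 0.089 CPM in E6 and 7.92, 2.69 and 3.75 CPM in E8. BA lay above both controls in every replicate, and replicate 1 exceeded the mean of replicates 2 and 3 by 78.5 times in BA and by 104 times in E6. The E6 replicates 2 and 3 had only 3 counts each.

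CXCR4, the only receptor among the 6, was low until the end of the course. In BA it had 3.16, 1.07, 0.363, 0.879, 1.29, 2.97, 4.98 and 16.7 CPM at 6 to 48 h. Its level at 6 h was 8.72 times that at 18 h (3.78 to 24.7) and 5.48 times that of t0 replicate 1, and its level at 48 h was 46 times that at 18 h (20.8 to 126). E6 stayed at 0.597 to 1.1 CPM and E8 at 0.565 to 1.14 CPM in the first set. The E8 libraries of 18 and 36 h, which stand apart, had 1.34 and 1.78 CPM. BA was above E6 at 6 h (3.39 times, 1.995 to 6.02), below it at 18 h (ratio 0.359, 0.115 to 0.965, where the E6 library stands apart) and above it at 48 h (15.1 times, 9.61 to 25.2). The second set had the opposite order at 48 h: CXCR4 had 16.7, 5.25 and 5.02 CPM in BA, 1.1, 7.59 and 7.59 CPM in E6 and 1.14, 8.71 and 7.37 CPM in E8. At 24 h it had 0.879, 2.64 and 2.42 CPM in BA, against 0.576, 0.989 and 1.76 CPM at t0.

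**Figure D2:**
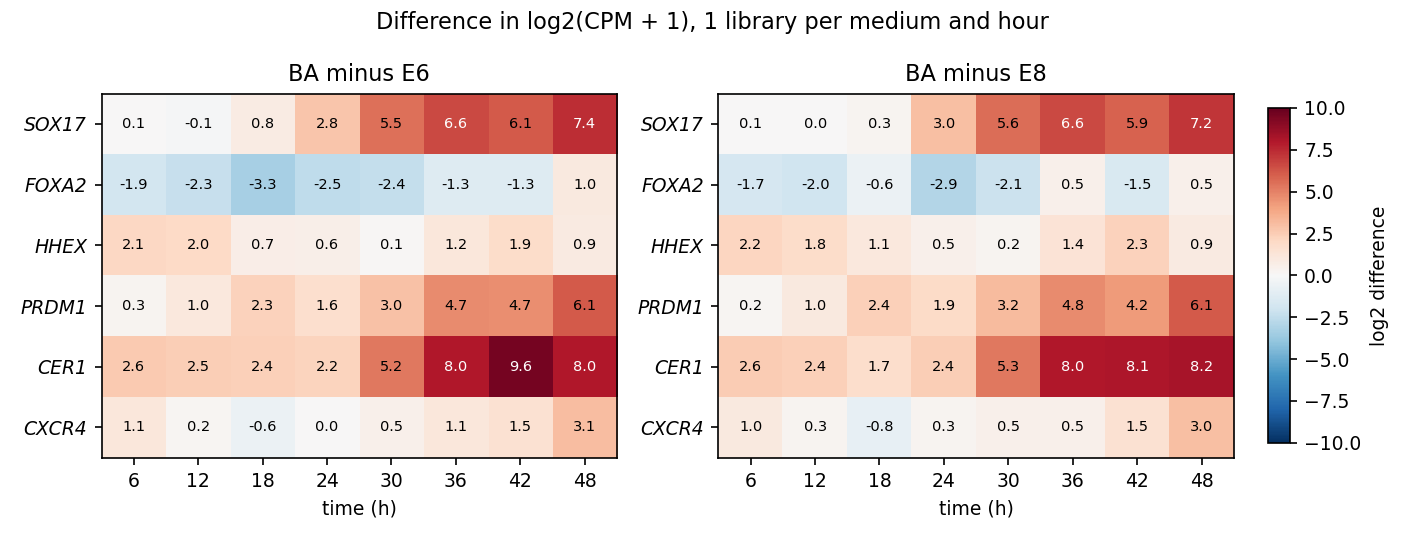
Difference in log2(CPM + 1) between BA and E6 (left) and between BA and E8 (right) for each gene and hour, 1 first-set library per medium and hour. CER1 is higher in BA at every hour (65.2 against 9.72 CPM in E6 at 6 h), FOXA2 is lower in BA up to 42 h against E6, and SOX17 and PRDM1 differ most at 48 h.

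Whether the whole course differed between media was tested with edgeR's quasi-likelihood test on the 16 first-set libraries of each pair, with a smooth curve of time in each medium. With 1 library per medium and hour, the error is the departure of single hours from the curve. It is not a spread between replicates, here or in the test of medium by time below. Between BA and E6, 28.6% of 17938 genes passed a Benjamini-Hochberg adjusted p of 0.05, and all 6 members passed. Averaged over the hours, the fitted log2 difference of BA and E6 was 5.33 for CER1 (edgeR adjusted p = 1.27e-07), 4.32 for PRDM1 (4.1e-07), 2.92 for HHEX (0.00345), 1.28 for CXCR4 (1.93e-05) and -3.46 for FOXA2 (1.08e-06). SOX17 was higher in BA (edgeR adjusted p = 4.07e-08), with no size given, since its E6 and E8 libraries held too few counts to fix one. So 5 members rose in BA and FOXA2 fell, and the median over the 6 was 3.62, with -0.01 over all genes tested. Between BA and E8, 32% of 17855 genes passed and again all 6 members did. SOX17 was again higher in BA (edgeR adjusted p = 3.77e-07), and the differences were 5.05 for CER1 (5.03e-07), 4.38 for PRDM1 (5.19e-07), 3.66 for HHEX (5.94e-04), 1.06 for CXCR4 (0.00104) and -3.08 for FOXA2 (0.00972). Both tests share the BA libraries. Against E8, CXCR4 did not pass without the libraries of 48 h (edgeR adjusted p = 0.0547, log2 difference 0.64). FOXA2 did not pass there without those of 24 or of 30 h (0.0649 and 0.0506), although its difference stayed between -3.60 and -2.51 whichever hour was left out. Without the libraries of 42 h all 6 members passed in both pairs.

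The size of the difference between BA and E6 also depended on the hour. In the test of medium by time, 8.28% of genes passed, among them 4 of the 6 members: CER1 (edgeR adjusted p = 1.64e-04), FOXA2 (3.28e-04), PRDM1 (6.72e-04) and CXCR4 (0.00174). SOX17 (0.288) and HHEX (0.703) did not pass. For SOX17 this does not show a steady difference: E6 had at most 3 counts at any hour, while BA had 1 count at 6 h and 2733 at 48 h. The same 4 members passed without the E6 library of 18 h, when 13.6% of genes did, and without any 1 hour, when 2.92% (without 6 h) to 13.1% (without 18 h) of genes did. With the second set included, no member passed this test, which only 0.286% of genes then passed. The test of the whole course kept SOX17, HHEX, PRDM1 and CER1 in both pairs of media. There 12.3% of genes passed against E6 and 12.8% against E8. FOXA2 then had an edgeR adjusted p of 0.0504 against E6 and 0.165 against E8, and CXCR4 of 0.289 and 0.664. Against E6 the fitted differences were close to those of the first set, at -3.72 for FOXA2 and 1.26 for CXCR4.

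**Figure D3:**
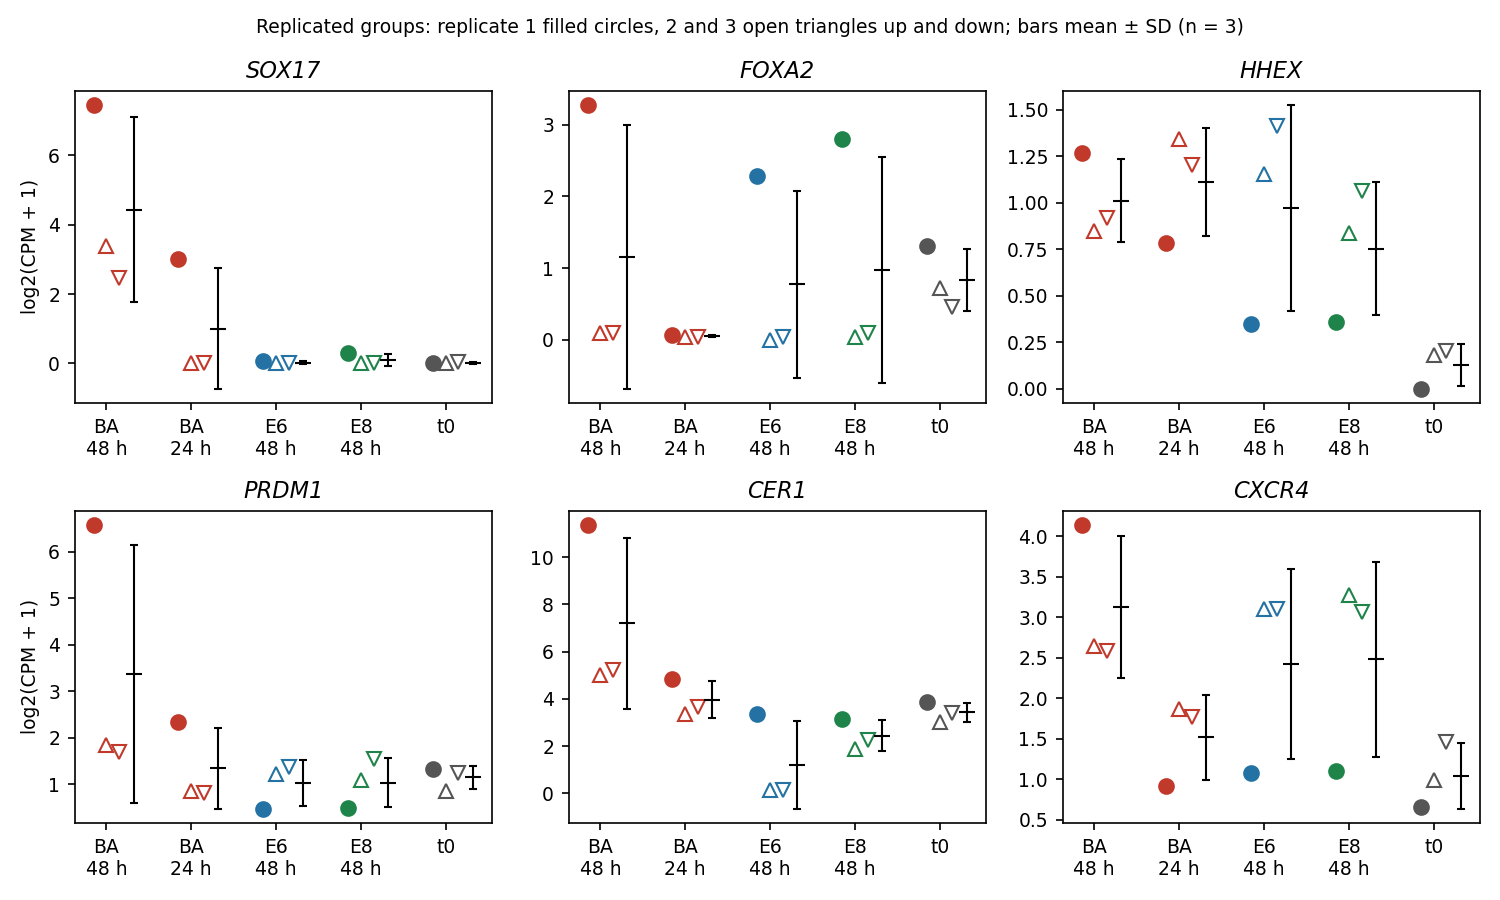
Each replicate (1, 2 and 3) with the group mean ± SD (n = 3) on the log2(CPM + 1) scale, for BA 48 h, BA 24 h, E6 48 h, E8 48 h and t0. Replicate 1 of BA 48 h stands above replicates 2 and 3 for all 6 genes (175 against 9.54 and 4.48 CPM for SOX17), and CXCR4, HHEX and PRDM1 in E6 and E8 have the reverse split.

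In the replicated groups the spread between replicates was wide for several members. SOX17 averaged 62.8 ± 96.8 CPM in BA at 48 h, CER1 907 ± 1512 CPM and CXCR4 8.98 ± 6.66 CPM (SD, n = 3), with the SD above the mean in SOX17 and CER1. For BA against E6 at 48 h, 3.52% of 21554 genes passed edgeR's quasi-likelihood test and SOX17 was the only member to do so (adjusted p = 0.0494). SOX17's call was lost when any 1 of the 6 libraries was left out, and CER1 passed only without E6 replicate 1. CER1 had a log2 difference of 8.33 (edgeR adjusted p = 0.0607), PRDM1 of 4.93 (0.0883), FOXA2 of 1.31 (0.924), CXCR4 of 0.74 (0.84) and HHEX of -0.06 (1). Without BA replicate 1 the difference was 3.49 for CER1 and 1.08 for PRDM1. Without E6 replicate 1 it was 13.33 for CER1, a size that rests on 3 counts in each E6 library left. Same-numbered libraries deviated together from their group means. The split between replicate 1 and replicates 2 and 3 alone could give this, and libraries of unlike number were not compared. A block for replicate number takes up this split, but no pairing beyond it was shown. With the replicate block, 22.1% of genes passed and 2 members did, SOX17 (edgeR adjusted p = 2.4e-05) and CER1 (log2 difference 7.78, 0.00235).

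Replicates 2 and 3 taken alone gave a different picture, in which 36.7% of 21822 genes passed. In BA against E6, CER1 rose by 8.47 on the log2 scale (edgeR adjusted p = 3.67e-08) and SOX17 rose (9.85e-05). The size for CER1 rests on 3 counts in each E6 library. Its ratio of pooled counts was 384 (95% counting interval 176 to 1047). HHEX fell by 0.82 (edgeR adjusted p = 0.0355) and CXCR4 fell by 0.62 (0.0252) in BA against E6. The direction of CXCR4 at 48 h therefore differed between the sets, 16.7 against 1.1 CPM in replicate 1 and 5.25 and 5.02 against 7.59 and 7.59 CPM in replicates 2 and 3. CDH1 and EPCAM moved with this split within BA (EPCAM had 45.6, 165 and 169 CPM in replicates 1, 2 and 3). So did pluripotency genes: SOX2 had 3.51, 162 and 131 CPM in the 3 BA replicates, POU5F1 had 291, 2680 and 1639 CPM, and NANOG had 7.98, 56.7 and 50.6 CPM. The controls at 48 h split as well: POU5F1 had 545, 985 and 1057 CPM in E6 and 652, 1954 and 1507 CPM in E8. CDH1 had 177, 402 and 382 CPM in E6 and 125, 291 and 258 CPM in E8. NANOG had 21.6, 16.9 and 11.1 CPM in E6 but 32.1, 64.5 and 65.1 CPM in E8. SOX2 was lower in replicates 2 and 3 of both controls. The summed level of the 10 pluripotency genes measured was 2582, 6352 and 5262 CPM in the 3 BA replicates, against 5808, 5796 and 5755 CPM in E6. The part of these genes in the result was not tested.

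Against E8 at 48 h, 2.44% of genes and no member passed (edgeR adjusted p = 0.0729 for SOX17, 0.0868 for CER1 and 0.103 for PRDM1), with 2931 genes at an unadjusted p under 0.05. With the replicate block 17.6% of genes passed, and with them SOX17 (edgeR adjusted p = 3.51e-05) and CER1 (log2 difference 5.73, 0.0109). In replicates 2 and 3 alone 33.1% of genes passed. There SOX17 rose (edgeR adjusted p = 0.000133), CER1 rose by 3.36 (1.06e-06) and CXCR4 fell by 0.68 (0.0176). E6 and E8 themselves differed in 0.144% of genes at 48 h and in no member (2.84% of genes and no member with the replicate block), with 1017 genes at an unadjusted p under 0.05. In replicates 2 and 3, where 18.4% of genes passed, CER1 fell in E6 against E8, with a log2 difference of -5.10 (edgeR adjusted p = 6.21e-06). This size rests on 6 CER1 counts in E6, against 210 in E8.

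After the first day in BA, HHEX lay above t0 and FOXA2 below it in all 3 replicates. HHEX averaged 1.19 ± 0.419 CPM in BA at 24 h and 0.0954 ± 0.0829 CPM at t0, and FOXA2 averaged 0.0383 ± 0.0116 CPM in BA at 24 h and 0.83 ± 0.569 CPM at t0 (SD, n = 3 each). In the test over 3 replicates 1.57% of genes passed and no member did. HHEX came nearest (log2 difference 3.55, SE 0.83, edgeR adjusted p = 0.059), FOXA2 had an adjusted p of 0.809, and 2021 genes had an unadjusted p under 0.05. With the replicate block 8.95% of genes passed, among them HHEX (log2 difference 3.57, edgeR adjusted p = 0.00781) and SOX17 (0.0107), whose BA counts at 24 h all came from replicate 1, but not FOXA2 (0.0732). In replicates 2 and 3 alone, where 20.7% passed, HHEX rose by 3.33 (edgeR adjusted p = 0.000112), CXCR4 rose by 0.94 (0.0138) and FOXA2 fell by 3.82 (0.00373).

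Over the second day in BA no member passed in the test of 48 h against 24 h over 3 replicates, where 0.455% of genes did and 2212 had an unadjusted p under 0.05. With the replicate block 10% of genes passed, and SOX17 was among them (edgeR adjusted p = 0.000443). In replicates 2 and 3, where 34.1% passed, 4 members rose: SOX17 (edgeR adjusted p = 0.000131), CER1 by 1.71 (6.54e-05), PRDM1 by 1.62 (0.00277) and CXCR4 by 1.04 (0.00255). In replicate 1, CER1 had 2653 CPM at 48 h and 28 CPM at 24 h, and PRDM1 had 94.7 and 4.08 CPM, so the 2 sets shared the direction and differed in size.

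The authors' deposited table gives their own DESeq2 result per group. Its reference is not named, and across genes its log2 changes had a correlation with changes from t0 computed here of 0.932 to 0.962. For BA at 48 h, the authors' deposited table gives log2 changes of 4.45 for SOX17 (adjusted p = 1.23e-05), 3.46 for CER1 (0.00162), 2.98 for PRDM1 (0.00779), 2.79 for HHEX (3.97e-04), 2.68 for CXCR4 (4.01e-04) and 1.01 for FOXA2 (0.72). For BA at 24 h, the authors' deposited table gives 2.44 for HHEX (5.76e-05) and -2.26 for FOXA2 (0.00123). HHEX and CXCR4 are higher there in E6 at 48 h too, with 2.27 (0.00815) and 1.75 (0.0349) in the authors' deposited table. For E8 at 48 h, the authors' deposited table gives 1.73 for HHEX (0.0445) and 1.62 for CXCR4 (0.0509).

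Levels between genes were compared as CPM per kb of exon. At 48 h in BA, replicate 1, the order was CER1 (2183 CPM per kb), SOX17 (74.5), PRDM1 (14.8), CXCR4 (7.49), FOXA2 (3.34) and HHEX (0.556). In replicates 2 and 3 CER1 was again first (26.0 and 29.6 CPM per kb), followed by SOX17 (4.07 and 1.91) and CXCR4 (2.36 and 2.26), whose ranges overlapped, then by PRDM1 (0.408 and 0.348) and HHEX (0.317 and 0.352), which overlapped as well, with FOXA2 last (0.0267 and 0.0244). CER1 led and HHEX and FOXA2 were low in both sets.

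Across the 25 first-set libraries, which share hours and media, PRDM1 and CER1 followed each other most closely (Pearson's r of log2(CPM + 1) 0.947), then SOX17 and CER1 (0.923) and SOX17 and PRDM1 (0.910). HHEX followed CER1 at 0.719 over all 25 libraries but at 0.242 over the 8 in BA. FOXA2 correlated with the others at -0.395 to 0.0295 over 25 libraries, and at 0.935 with CXCR4 over the 8 in BA, both being highest at 48 h. Among 12680 genes, those most like SOX17 were TRH (0.994), RP1-170O19.17 (0.993), ATP12A (0.991), SLITRK2 (0.990) and CAMKK2 (0.987). Those most like CER1 were PLXNA2 (0.981), LHX1 (0.971), FERMT2 (0.965), ANKRD44 (0.964) and FOXC1 (0.962), and those most like PRDM1 were PAG1 (0.973), RNF11 (0.964), FERMT2 (0.960), EGF (0.957) and SVEP1 (0.956). HHEX was most like LOX (0.883), ELFN1 (0.853), COCH (0.831), PTP4A2 (0.817) and NKILA (0.814). CXCR4 was most like VWF (0.926), CEP164 (0.914), PSKH2 (0.908), TMOD1 (0.904) and GRAP2 (0.903), and FOXA2 most like C6orf132 (0.897), SSTR2 (0.826), VASN (0.821), KCNK1 (0.809) and TNK1 (0.808).

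Among genes of the Nodal pathway and factors that induce endoderm, EOMES and MIXL1 were high in BA at hours when SOX17 was still low. Of 15 such genes, 3 rose and none fell in BA against E6 at 48 h (6 and none with the replicate block), and over the course 8 were higher and 2 lower in BA, the lower ones being TDGF1 and LEFTY1 (a Nodal co-receptor and a Nodal antagonist). Over all genes tested, 3.52% were called at 48 h in either direction, 22.1% with the block and 28.6% over the course. EOMES, the T-box factor that starts endoderm, had 7.38, 35.8, 177, 436, 752, 897, 1138 and 992 CPM in the first set in BA and at most 4.43 CPM in E6. It was thus at 177 CPM at 18 h, when SOX17 was at 0.725 CPM. MIXL1, a streak homeodomain factor, had 13.4 CPM at 6 h, 399.8 CPM at 24 h and 1155 CPM at 42 h in BA. At 48 h EOMES had 992, 45.3 and 46.6 CPM in BA, against 2.37, 0.204 and 0.208 CPM in E6 (log2 difference 8.80, edgeR adjusted p = 0.0251), and MIXL1 differed by 8.16 (0.0383). The ligand NODAL peaked at 43.2 CPM at 30 h and was back at 2.17 CPM at 48 h in the first set, but had 15.6 and 15.5 CPM in replicates 2 and 3 of BA at 48 h, against 0.438 and 0.563 CPM in E6. LHX1, an organizer factor, reached 454 CPM and GSC, another, 38.1 CPM in BA, while E6 did not exceed 0.936 CPM of LHX1 or 0.22 CPM of GSC. The median log2 difference of the 15 genes at 48 h was 0.50, with 0.04 over all genes tested.

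Other definitive endoderm genes were mixed. Of 19, 18 were tested (FOXA1 was too low), 2 rose and none fell at 48 h against E6 (7 and 1 with the block), and over the course 10 were higher and 5 lower in BA. These counts stand against 3.52%, 22.1% and 28.6% of all genes tested. GATA4 had 125, 1.74 and 1.75 CPM in BA at 48 h, against 0.165, 0.146 and 0.0593 CPM in E6 (log2 difference 8.50, edgeR adjusted p = 0.0333). GPR37, a receptor, had 18.9, 34.4 and 28.9 CPM in BA and 2.7, 5.55 and 5.4 CPM in E6 (2.58, 0.0023), and was higher in BA in both sets. Over the course in the first set the largest differences were those of GATA6 (log2 9.97, edgeR adjusted p = 8.75e-10), which had 36.6 CPM at 24 h and 404 CPM at 48 h in BA, of GATA4 (7.90, 4.85e-09), of the BMP antagonist NOG (6.05, 4.14e-06) and of the apelin receptor APLNR (5.37, 4.85e-09). FOXA1 did not exceed 1.09 CPM in BA. Genes of later gut and liver were near absent: 4 of 14 could be tested at 48 h and none was called. Over all hours and both sets, their summed level was 0.668 to 7.29 CPM in BA and 3.00 to 5.46 CPM in E6.

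**Figure D4:**
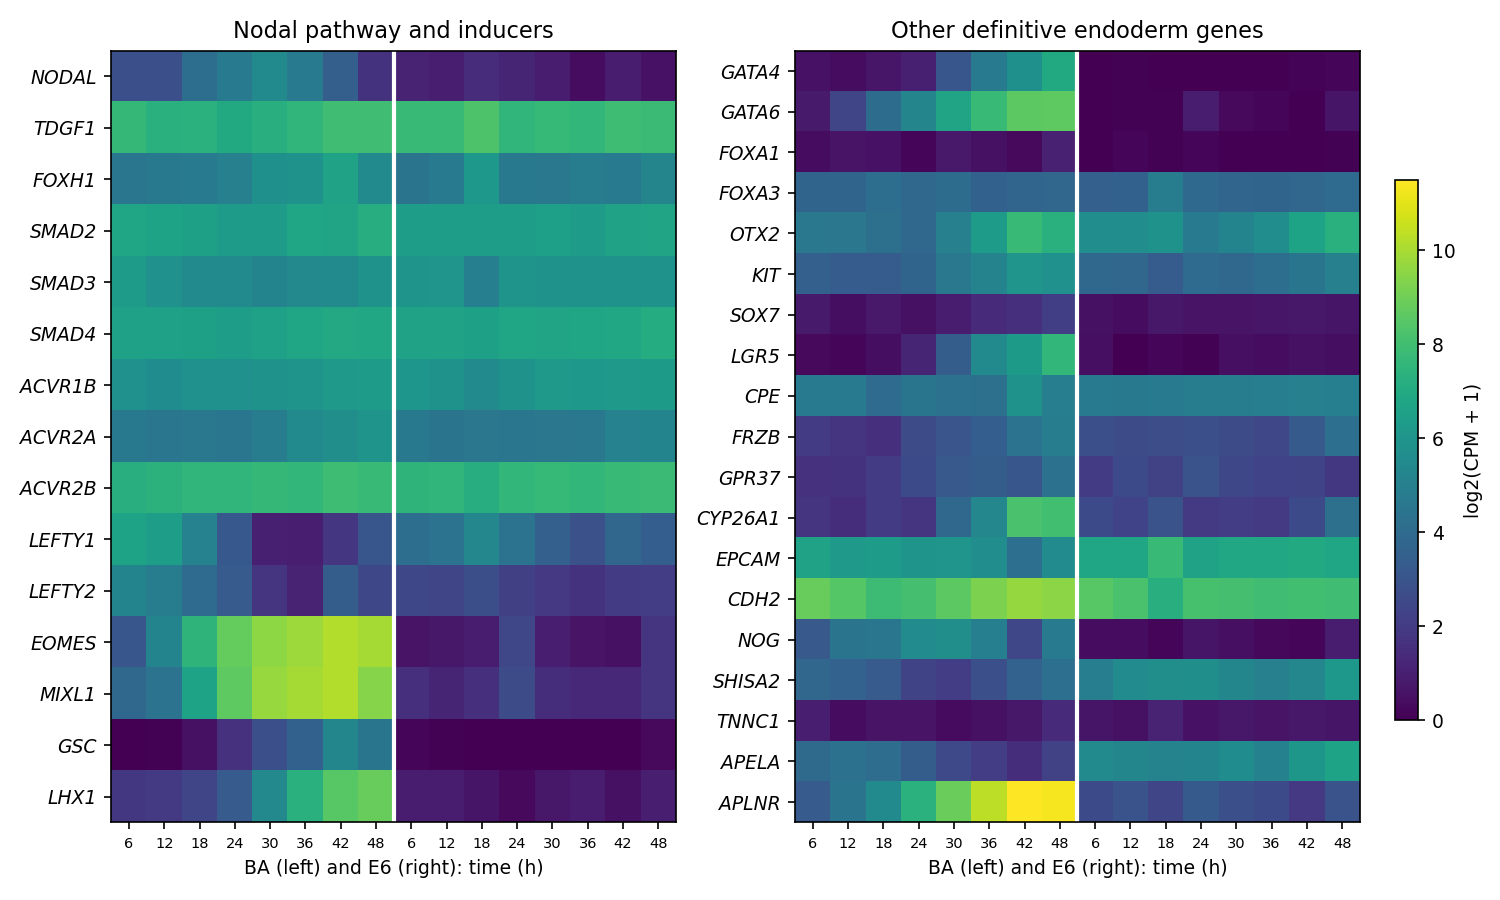
Levels as log2(CPM + 1) of the Nodal pathway and inducer genes and of the other definitive endoderm genes by hour, BA on the left and E6 on the right, from 1 first-set library per medium and hour. EOMES and MIXL1 are high in BA by 18 h (177 and 100.1 CPM), and GATA4 and LHX1 follow from 30 h (7.51 and 41.3 CPM).

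Of a list of Nodal-related, BMP and Wnt ligands and sister antagonists of CER1 some were higher in BA at 48 h, and none of the CXCR4 list was called. Of the 9 genes for these ligands and antagonists 8 were tested, and 4 rose and none fell at 48 h against E6 (6 with the block): WNT3 (log2 difference 6.27, edgeR adjusted p = 0.000985), GDF3 (4.79, 0.0193), NODAL (4.45, 0.00148) and BMP4 (4.35, 0.00355). Over all genes tested, 3.52% passed at 48 h, 22.1% with the block and 28.6% over the course. All 8 genes of this list were higher in BA over the course. Their median log2 difference was 4.23 against E6 at 48 h but -0.20 for BA at 48 h against 24 h (0.04 and 0.03 over all genes tested). WNT3 was at 26.3 CPM at 6 h and 180 CPM at 30 h in BA and at most 3.73 CPM in E6. GDF3 went against the split seen in CER1, with 0.639 CPM in BA replicate 1 and 48.2 and 44.1 CPM in replicates 2 and 3. Of 5 genes for CXCR4's ligand and partners none was called at 48 h (1 higher with the block). CXCL12 had 55.6, 41.2 and 44.8 CPM in BA and 83.6, 43.7 and 46.5 CPM in E6 (log2 difference -0.27, edgeR adjusted p = 0.84), and over the course it was slightly lower in BA (-0.34, 0.00171).

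Markers of other cell types that can make these genes also moved in BA. Over all genes tested, 3.52% were called in BA against E6 at 48 h in either direction. Summed levels are ranges over all 12 BA and 10 E6 libraries, of all hours and both sets, and not levels at 48 h. Of 13 tested extraembryonic endoderm genes 2 rose at 48 h against E6, GATA4 and SPARC (log2 difference 1.54, edgeR adjusted p = 0.00809), their summed level was 1653 to 4180 CPM in BA and 1607 to 2202 CPM in E6, and TTR was at 0 in every library. Of 13 blood and endothelium genes 2 rose, RUNX1 (3.15, edgeR adjusted p = 0.04) and KDR (2.29, 0.00296), with summed levels of 283 to 623 CPM in BA and 195 to 404 CPM in E6 and PECAM1 and TAL1 below 1 CPM in BA. Of 10 germ cell genes 3 rose and 1 fell, and their median log2 difference was -0.23 (0.04 over all genes tested). Among those that rose were TFAP2A (8.51, edgeR adjusted p = 0.000202), which is also an amnion marker, and TFAP2C (3.30, 0.0189). The summed level of the germ cell genes was 127 to 311 CPM in BA and 207 to 403 CPM in E6. Of 9 axial mesoderm genes 1 rose and 1 fell, with 93.3 to 1008 CPM in BA and 64.7 to 182 CPM in E6.

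Amnion, mesoderm, neural and pluripotency genes were counted in the same way, beside 3.52% of all genes at 48 h and 22.1% with the block. Summed levels here again span all hours and both sets. Of 10 tested amnion and trophoblast genes 5 rose, led by ISL1 (log2 difference 10.17, edgeR adjusted p = 0.0499), GATA3 (8.78, 0.00101) and HAND1 (8.54, 0.0328), and their summed level was 104 to 541 CPM in BA and 14.9 to 36.9 CPM in E6. Of 10 tested genes of nascent mesoderm 5 rose, among them MESP1 (5.78, edgeR adjusted p = 0.04), with 14.3 to 1324 CPM in BA and 11.9 to 24.8 CPM in E6. Of 12 neuroectoderm genes 2 fell, FEZF1 (-6.26, edgeR adjusted p = 7.64e-05) and HESX1 (-3.91, 0.0211). Of 10 pluripotency genes none was called at 48 h (2 lower with the block). Over the course in the first set, 7 pluripotency genes were lower in BA and 1 higher, with SOX2 (-2.98, edgeR adjusted p = 4.18e-07) and PRDM14 (-2.61, 2.02e-08) the furthest from E6. Over the same course, which 28.6% of all genes passed, numbers higher and lower are given with the number tested. Extraembryonic endoderm had 7 and 0 of 13, blood and endothelium 5 and 1 of 11, and germ cells 4 and 4 of 8. Axial mesoderm had 7 and 2 of 9, amnion 6 and 3 of 9, nascent mesoderm 10 and 1 of 11, and neuroectoderm 1 and 6 of 9. Several of these genes stand in more than 1 list. The part of these cell types in the levels of the 6 members was not tested.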

How the data were processed

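Poly(A) RNA-seq of 35 H9 libraries was used. Per the submitters' processing notes, reads were placed on hg38, counted with featureCounts and tested with DESeq2; the aligner and the versions are not given in the sources used here. The authors deposited whole-number counts for 58581 genes of GENCODE release 23, per the file headers, with no normalization. A deposited second table holds the authors' log2 fold changes and p-values per group. No value column was left without a sample or group.

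From the counts, CPM were computed with TMM factors (edgeR 4.0.16, limma 3.58.1, R 4.3.3). Libraries held 11793453 to 37191969 counts, so values below about 1 CPM rest on few reads. Genes were tested with edgeR's quasi-likelihood F-test, with Benjamini-Hochberg adjustment over all genes tested and a threshold of 0.05. The group tests were filtered with filterByExpr. The time courses kept genes at or above its CPM cutoff in at least 3 libraries, with a floor on the total count. One model of group covered the 15 libraries of the 5 replicated groups (21554 genes; all 6 members passed the filter), without a replicate block. The time courses used the 16 first-set libraries of 2 media, 1 natural spline per medium (3 degrees of freedom), and a joint test of the medium terms; a gene counts as higher where the mean fitted BA minus control difference over the hours is above 0. Hourly ratios carry 95% exact binomial intervals of the counts, and groups with no count were set at a floor of 3 counts. Fitted differences of SOX17, which was at or near 0 in most groups, depend on the prior count in the group tests. The time courses use no prior count, and there its difference from E8 ran from 4.91 to 57.1 with 1 hour left out. The report gives the tests of SOX17 without its fitted differences, and where these stand beside an alternative they are no measure of size.

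Same-numbered libraries deviated together. Over 30 pairs of libraries and 12076 genes, the correlation of deviations from group means ran from 0.656 to 0.936, with a median of 0.789. The split between the sets alone could give this, and libraries of unlike number were not compared, so no pairing beyond the sets was shown. Results with the block are given where they differ. Alternatives were DESeq2 1.42.0, RLE size factors, no filter, fits to the libraries of 2 groups, replicates 2 and 3 only, each library left out, a simpler spline, and, added after seeing the data, edgeR's newer quasi-likelihood method and fits without the libraries that stand apart. The fits were tested on simulated data. Gene positions and exon lengths came from GENCODE release 29 on GRCh38, and promoters from RefSeq.

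The members and the gene lists were chosen with earlier results of these data known. Named from each list were up to 4 called genes with the largest change among those of at least 5 mean CPM in a group, or at most 2 of the most abundant where none was called; LHX1 and GSC, TTR, FOXA1, PECAM1 and TAL1 were named after their values were seen. A gene of the list of other definitive endoderm genes is not reported here. For each member the 5 genes with the highest correlation were named, among genes reaching 5 CPM in at least 2 first-set libraries.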

Additional observations from a re-analysis of the deposited data

Results flagged for a closer look

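The difference between BA and E6 was not the same at all hours for 4 of the 6 members, by edgeR's test of medium by time on the 16 first-set libraries, which 8.28% of genes passed. With the second set included none of the 6 passed, when only 0.286% of all genes did. CER1 (adjusted p = 0.000164) was 6.71 times as high in BA as in E6 at 6 h and 919 times as high at 42 h. FOXA2 (adjusted p = 0.000328) was lower in BA up to 42 h and 2.25 times as high in BA as in E6 at 48 h. PRDM1 (adjusted p = 0.000672) had a ratio of BA to E6 of 1.32 at 6 h and 246 at 48 h. CXCR4 (adjusted p = 0.00174) had a ratio of 3.39 at 6 h, 0.359 at 18 h and 15.1 at 48 h. SOX17 did not pass, yet with E6 counts near 0 it had 1 count in BA at 6 h and 2733 at 48 h.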

How the results depend on the processing

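Values of the members at 48 h are limited by the difference between replicate 1 and replicates 2 and 3, and single hours by 1 library each. Below about 1 CPM, as for HHEX in E6 and SOX17 outside BA, few reads decide a value. The number of members called in BA against E6 at 48 h was 1, where 3.52% of all genes passed. Shares of all genes follow in brackets. The number was 2 with the replicate block (22.1%), 4 with replicates 2 and 3 only (36.7%) and 2 with the newer quasi-likelihood method (4.42%). It was 0 with RLE size factors (3.36%), 0 in the fit to the 2 groups alone (0.38%, 5 members tested) and 0 to 1 with 1 library left out (1.16% to 3.01%). Against E8 it was 0 (2.44%), then 2 with the replicate block (17.6%), 3 with replicates 2 and 3 (33.1%) and 1 with the newer method (3.3%). With any 1 library left out it was 0 (0.871% to 2.27%). For BA at 24 h against t0 it was 0 (1.57%), then 2 with the block (8.95%) and 3 with replicates 2 and 3 (20.7%). HHEX was the 1 member with DESeq2 (3.64%) and with the newer method (1.87%), and none was called with any 1 library left out (0.376% to 0.927%). For BA at 48 h against 24 h the number was 0 (0.455%), then 1 with the block (10%) and 4 with replicates 2 and 3 (34.1%). With any 1 left out it was 0 (0.0135% to 0.787%). For E6 against E8 it was 0 (0.144%), then 1 with replicates 2 and 3 (18.4%) and 0 with any 1 left out (0.00903% to 0.251%). The block changed no other call. DESeq2 gave an adjusted p for SOX17, HHEX and CXCR4 only. The time course tests kept all 6 members without the E6 library of 18 h (37.5%) or the E8 libraries of 18 and 36 h (32.2%). With 1 hour left out they kept 6 against E6 (21.2% to 37.2%) and 5 to 6 against E8 (25.1% to 32.4%). In the test of medium by time 4 members passed (8.28%), and 0 did with the second set included (0.286%). The cause of these changes was not tested.

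The log2 difference changed direction for CXCR4 with replicates 2 and 3 (-0.62 against E6 and -0.68 against E8), for HHEX (0.0468 with the block against E6, -0.17 with replicates 2 and 3 against E8), for SOX17 and PRDM1 in BA at 24 h against t0 with replicates 2 and 3 (-2.40 and -0.42) and for PRDM1 in E6 against E8 with the block (0.0125). With 1 library left out, BA against E6 ranged from -4.11 to 7.30 for FOXA2, -0.11 to 1.07 for CXCR4 and -0.49 to 0.39 for HHEX. BA against E8 ranged from -4.78 to 5.91 for FOXA2 and -0.18 to 1.07 for CXCR4, and BA at 24 h against t0 from -1.93 to 9.05 for SOX17 and -0.63 to 1.03 for PRDM1. HHEX ranged from -0.50 to 0.0075 in BA at 48 h against 24 h. E6 against E8 ranged from -3.73 to 1.91 for SOX17, -6.73 to 4.69 for FOXA2, -0.55 to 0.40 for CXCR4 and -0.40 to 0.55 for PRDM1.

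Counts over all genes moved more. In BA against E6 at 48 h 759 genes passed, 4760 with the block, 7999 with replicates 2 and 3, 76 in the fit to the 2 groups, 1562 with DESeq2 and 257 to 670 with 1 library left out. In BA against E8 these were 526, 3801, 7228, 47, 1274 and 193 to 504; in BA at 24 h against t0 339, 1929, 4511, 114, 821 and 84 to 206; in BA at 48 h against 24 h 98, 2158, 7441, 0, 643 and 3 to 175; and in E6 against E8 31, 612, 4025, 0, 220 and 2 to 56. With the second set included the time courses called 2451 genes against E6 and 2525 against E8, and the test of medium by time 57, where 1485 passed in the first set, 519 to 2339 with 1 hour left out and 2439 without the E6 library of 18 h.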
